A study of Mus musculus with 54 samples.

Results

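H3K27me3, the trimethyl mark on lysine 27 of histone H3, was compared between wild-type (Wt) and Ebf1-deficient (Ebf1-KO) mouse B-cell progenitors at the accessible chromatin regions listed in 4 deposited tables. The 4 tables hold 3764 rows, 4 of them on chromosome Y, and all of the other 3760 rows were taken. They comprise 3638 distinct regions that lie nearest to 1660 genes, since 122 rows repeat a region. According to the table names, the regions are ATAC-seq peaks at genes that the authors called enriched in Wt cells, so genes that are equal in both genotypes or higher in Ebf1-KO are not represented. The authors divided the regions into 4 classes, by whether they were accessible in both genotypes or only in Wt, and by whether they lay at a promoter. Of the distinct regions, 2309 were open in both genotypes away from promoters, 512 were promoters open in both, 748 were open in Wt only away from promoters and 69 were promoters open in Wt only.

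Both groups are labelled pro-B cells from fetal liver of C57BL6/J mice. They were grown on OP9 stromal cells with KIT ligand, Fms-like tyrosine kinase 3 ligand and Interleukin-7. The wild-type group carries no named alteration and the other group is labelled Ebf1-KO. Ebf1 is a transcription factor that B-cell specification depends on, and cells without it stop early in the lineage. In mixed cell material, fewer cells with a mark and less of the mark per cell cannot be told apart. Each genotype had 2 H3K27me3 ChIP-seq libraries, made with the same polyclonal antibody, but the tables give 1 pooled column per genotype. No spread between libraries could therefore be measured, and every interval below is a 95% interval that covers counting error only. The labels do not say whether the libraries came from separate fetuses. Accessibility values from E2A-KO cells were also used, at the same regions. Further accessibility values came from Ebf1-KO cells carrying an inducible Ebf1 fusion, before and at several times after its activation. H3K27me3 itself was compared only between Wt and Ebf1-KO.

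H3K27me3 is deposited by Polycomb repressive complex 2, whose catalytic subunit is Ezh2 or Ezh1, and is found over silent or poised genes. The complex is recruited mostly to CpG islands, and the mark then spreads over neighbouring nucleosomes, so that broad stretches rather than single sites carry it. H3K4me3, by contrast, marks promoters with engaged transcription machinery, and promoters that carry both marks are called bivalent. In lymphocyte development, genes of other lineages are known to be kept under this mark, while genes of the chosen lineage lose it or never gain it.

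Values are tags per region, scaled to a library of 10000000 tags, and are called tags here. The pooled libraries held 69807044 tags for Wt and 77280688 tags for Ebf1-KO, so 10 scaled tags stand for 69.8 and 77.3 sequenced tags. A region without any tag has an upper limit of 0.43 scaled tags in Wt and 0.388 in Ebf1-KO. A region was called higher or lower when the ratio of (value + 1) between the genotypes was at least 2, without a test across samples. By this rule 615 of the 3638 regions, at 403 genes, were higher in Ebf1-KO (16.9% of all) and 170 were lower (4.67%). The median region hardly carried the mark in either genotype, at 0.86 tags in Wt and 0.71 tags in Ebf1-KO, and the median log2 ratio was -0.03 (interval -0.05 to -0.01). The difference lay in the upper part of the range. At least 10 tags were found in both genotypes at 58 regions, in Ebf1-KO alone at 222 regions and in Wt alone at 7 regions. Of the regions called higher, 233 at 187 genes reached 10 tags (6.4% of all regions). The weakest of these had 10.03 tags and the strongest region called higher but below 10 tags had 9.96.

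In 2 sets of regions, the pooled Ebf1-KO column also had a stronger contrast between marked and unmarked regions. Both sets were chosen by the compared H3K27me3 values themselves, and scaling on either of them changes the counts given here. At the 58 regions with 10 tags in both genotypes the median was 15.9 tags in Wt and 31.7 in Ebf1-KO, a median log2 ratio of 0.91 (interval 0.84 to 1.01). At the 2387 regions below 2 tags in both genotypes the summed signal was lower in Ebf1-KO, by a ratio of 0.732. When Ebf1-KO values were divided by 1.93, the median ratio of the regions marked in both, 286 regions were higher and 397 were lower, so that higher regions made up 41.9% of the called regions in place of 78.3%. The median log2 ratio over all regions was then -0.28, and it was 0.11 when Ebf1-KO values were divided by 0.732, the ratio of the regions below 2 tags. All 286 were among the 615, since division by 1.93 can only remove higher calls. Of the 233 stronger regions, 160 stayed at least 2-fold higher under that scaling. Of the 58 regions marked in both, 24 were themselves called higher (41.4%, beside 16.9% of all regions), so the factor of 1.93 holds part of the difference it rescales. Whether the regions marked in both are a proper reference was not tested.

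**Figure D1:**
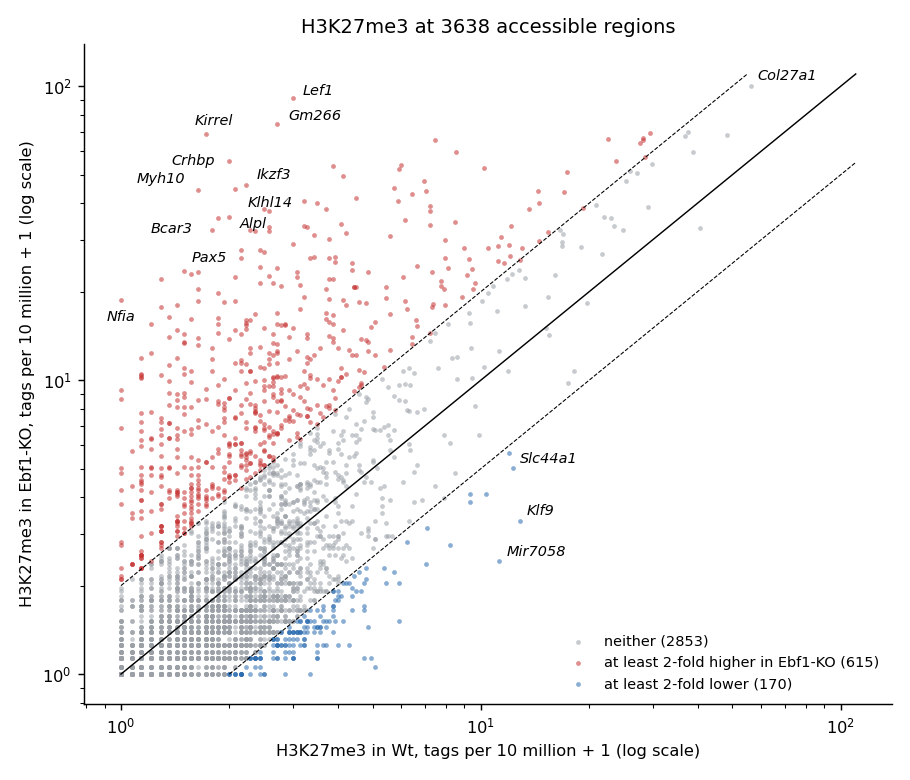
H3K27me3 at each of the 3638 regions in Wt (horizontal axis) and Ebf1-KO (vertical axis), in scaled tags plus 1 on log axes, with 1 point per region, the diagonal as a solid line and 2-fold differences as dashed lines. The 615 regions in red reach up to 90.1 tags in Ebf1-KO (Lef1), while the 170 regions in blue lie lower, with 11 of them at 5 or more tags in Wt and the highest at Slc44a1, Klf9 and Mir7058.

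The sequences before the starts of 7 genes, chosen after their values were seen, are shown because these genes fall on opposite sides of the comparison although RNA polymerase II was lower in Ebf1-KO at each of them. Each line gives the 250 bases before the start, 5′ to 3′ on the strand of the gene, from RefSeq (GRCm38.p6, whose coordinates are those of mm10), with every CpG dinucleotide in capitals. Kirrel (chr3:87174538-87174787, minus strand, 24 CpG), Foxo1 (chr3:52268087-52268336, plus strand, 20 CpG), Pax5 (chr4:44710695-44710944, minus strand, 19 CpG) and Il5ra (chr6:106749038-106749287, minus strand, 4 CpG) lie in regions that were higher in Ebf1-KO. Cd79a (chr7:24897247-24897496, plus strand, 6 CpG), Igll1 (chr16:16863986-16864235, minus strand, 1 CpG) and Vpreb1 (chr16:16869256-16869505, minus strand, 2 CpG) lie in regions without the mark in either genotype.
Kirrel: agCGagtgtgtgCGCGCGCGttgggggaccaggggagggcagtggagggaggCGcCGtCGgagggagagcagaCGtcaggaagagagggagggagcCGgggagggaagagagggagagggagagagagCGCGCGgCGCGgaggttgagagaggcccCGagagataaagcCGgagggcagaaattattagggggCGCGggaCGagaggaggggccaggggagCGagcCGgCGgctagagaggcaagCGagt
Foxo1: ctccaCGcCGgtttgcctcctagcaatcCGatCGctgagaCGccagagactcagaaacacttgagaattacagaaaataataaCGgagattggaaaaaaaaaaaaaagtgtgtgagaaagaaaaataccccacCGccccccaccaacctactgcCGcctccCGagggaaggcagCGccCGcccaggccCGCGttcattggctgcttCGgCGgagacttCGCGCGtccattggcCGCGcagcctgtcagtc
Pax5: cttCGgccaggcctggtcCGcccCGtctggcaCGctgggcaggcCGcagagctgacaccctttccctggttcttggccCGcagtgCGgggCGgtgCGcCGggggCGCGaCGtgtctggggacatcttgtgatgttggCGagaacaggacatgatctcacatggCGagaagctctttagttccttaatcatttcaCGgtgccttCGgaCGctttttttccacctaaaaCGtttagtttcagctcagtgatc
Il5ra: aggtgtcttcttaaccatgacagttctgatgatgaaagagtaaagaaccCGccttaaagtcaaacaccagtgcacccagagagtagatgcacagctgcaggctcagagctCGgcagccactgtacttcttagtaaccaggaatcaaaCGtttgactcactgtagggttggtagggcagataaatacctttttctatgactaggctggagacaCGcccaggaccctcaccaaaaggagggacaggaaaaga
Cd79a: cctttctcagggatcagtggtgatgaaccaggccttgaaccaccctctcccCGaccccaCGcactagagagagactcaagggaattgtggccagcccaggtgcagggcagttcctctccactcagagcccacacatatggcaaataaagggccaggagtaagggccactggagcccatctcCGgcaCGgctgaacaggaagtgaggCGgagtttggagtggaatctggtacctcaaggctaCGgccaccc
Igll1: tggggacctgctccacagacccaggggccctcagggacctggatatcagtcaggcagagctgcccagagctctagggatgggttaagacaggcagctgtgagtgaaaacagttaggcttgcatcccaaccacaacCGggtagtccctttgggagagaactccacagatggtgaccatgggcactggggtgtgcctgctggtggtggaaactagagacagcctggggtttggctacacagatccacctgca
Vpreb1: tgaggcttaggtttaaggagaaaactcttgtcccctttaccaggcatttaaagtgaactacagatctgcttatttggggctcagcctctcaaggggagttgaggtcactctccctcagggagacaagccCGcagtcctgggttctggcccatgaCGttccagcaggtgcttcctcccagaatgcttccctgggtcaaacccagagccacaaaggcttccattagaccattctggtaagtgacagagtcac

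The regions with the largest ratios had close to no H3K27me3 in Wt and were among the most heavily marked of the whole set in Ebf1-KO. The 12 largest, taken among regions with at least 10 tags and limited to 1 region per gene, ran from 0 to 2.01 tags in Wt and from 17.8 to 90.1 tags in Ebf1-KO, and their log2 ratios lay between 3.97 and 5.32. All 12 lay within 6 kb of an annotated start, 8 of them within 1 kb, beside 1053 of all 3638 regions within 1 kb. Under the scaling on regions marked in both, all 12 stayed at least 2-fold higher, with log2 ratios of 3.08 to 4.39.

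Kirrel, which encodes a nephrin-like adhesion protein, had the largest ratio. Its region over the first exon (chr3:87173827-87175113, in the 5' UTR) had 0.72 tags in Wt (interval 0.233 to 1.67) and 67.5 in Ebf1-KO (61.8 to 73.5), a 94.2-fold difference (40.1 to 291). H3K4me3 at the same region was 205 tags in Wt and 15.6 in Ebf1-KO. Lef1, an HMG-box factor of the Wnt pathway with a role in early B-cell growth, had the highest Ebf1-KO value among the regions called higher, in an intergenic region 3411 bases before its start (chr3:131106026-131107747). That region had 2.01 tags in Wt and 90.1 in Ebf1-KO, a 44.9-fold difference (26.6 to 82.6). Ikzf3, which encodes the Ikaros-family factor Aiolos, had 1.22 tags in Wt (0.542 to 2.35) and 45.2 in Ebf1-KO (40.6 to 50.2) at its promoter (chr11:98545633-98546367), a 37.1-fold difference. At this promoter RNA polymerase II was 35.1 tags in Wt and 0 in Ebf1-KO. Pax5, the commitment factor of the B lineage, had 0.50 tags in Wt and 22.6 in Ebf1-KO at its promoter (chr4:44710621-44711145), a 45.0-fold difference (16.3 to 189).

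Genes without a textbook role in B cells stood beside these. Crhbp, which encodes the corticotropin-releasing hormone binding protein, had 1.00 tags in Wt and 54.6 in Ebf1-KO in an intronic region 1238 bases from the nearest start. Gm266 had 1.72 and 73.4 tags over its single exon. Myh10, the heavy chain of nonmuscle myosin IIB, had 0.64 and 43.35 tags at its promoter. Klhl14, a kelch-family gene, had 1.07 and 43.6 tags in a region open in Wt only. Other members of the 12 were Bcar3 (0.79 and 31.5 tags), Alpl, the tissue-nonspecific alkaline phosphatase (1.00 and 34.8 tags), and Nfia, a nuclear factor I gene (0 and 17.8 tags). Nfia had no tag in Wt, and against a floor of 3 counts it was at least 41.4-fold higher in Ebf1-KO. In all 12 regions H3K27ac was at least 2-fold lower in Ebf1-KO, beside 37.4% of all regions. RNA polymerase II was at least 2-fold lower in 11 of the 12, beside 39.7% of all regions. H3K4me3 was at least 2-fold lower in 11 of the 12, beside 25.1%, the exception being Nfia with 54.3 and 47.6 tags. Of the 12 regions 5 overlapped an Ebf1-bound region of a pre-B cell line, beside 1192 of all 3638 regions.

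Decreases were smaller and started from low values. Of the 170 regions called lower, 128 had fewer than 3 tags in Wt, 11 had at least 5 and 4 had at least 10, and their median was 2.22 tags in Wt and 0.39 in Ebf1-KO. The 4 regions with at least 10 tags lay at 3 genes. An intergenic region nearest to Mir7058 fell from 10.2 to 1.42 tags (7.20-fold lower, interval 3.79 to 15.1). A region 5591 bases before the start of Klf9, a Kruppel-like factor, fell from 11.8 to 2.33 tags (5.07-fold lower, 3.02 to 8.98). At the promoter of Slc44a1, a choline transporter gene, the value fell from 11.25 to 4.01 tags (2.80-fold lower, 1.83 to 4.40), and in an intronic region of the same gene from 10.96 to 4.66 tags. H3K4me3 at Slc44a1 was 74.6 tags in Wt and 231 in Ebf1-KO, and at Klf9 70.9 and 111 tags, the latter short of 2-fold. The next regions in order did not reach 2-fold, among them Dusp4 with 16.5 and 8.80 tags, the region near Mir5119 with 17.2 and 9.70, and Asap1 with 39.7 and 31.8. Inppl1, H2-Ab1, Rab6b and Depdc7 completed this side, with ratios between 0.897 and 0.99 whose intervals all include 1.

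A small group of genes carried the mark in both genotypes. The 6 regions with the highest smaller value were at Col27a1, a fibrillar collagen gene (55.15 tags in Wt and 99.4 in Ebf1-KO), Map6, a microtubule-associated protein gene (47.3 and 67.0), Asap1 (39.7 and 31.8), Elfn1 (37.8 and 58.7), Osbp2 (36.7 and 68.6) and Cacna1h, which encodes a T-type calcium channel (35.9 and 66.5). None of the 6 was called. The Ebf1-KO value was 1.42 to 1.87 times the Wt value in 5 of them and 0.802 times in Asap1, and under the scaling by 1.93 all 6 log2 ratios were below 0 (-1.22 to -0.04), so no direction is given for this group. H3K27ac at these 6 regions was at most 6.66 tags in either genotype.

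Neighbouring regions of a gene were grouped into domains, which are runs of at least 2 regions with the same nearest gene and gaps of at most 50 kb. There were 852 domains that held 2703 of the regions. By the ratio of (sum + 1), 195 domains were higher in Ebf1-KO (22.9%) and 85 were lower (9.98%). In 148 of the 195 every region was above a log2 ratio of 0, and in 67 every region was at least 2-fold higher. Of the 85 lower domains only 2 had a summed Wt value of at least 10 tags, whereas 141 of the 195 higher domains reached 10 tags in Ebf1-KO. The regions of a domain share a stretch of chromatin and are not replicates of each other. With the scaling on regions marked in both, 94 domains were higher and 229 lower.

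The domain of Lef1 had the largest difference. It spanned 158 kb (chr3:131018974-131176578) with 11 regions, whose summed value was 11.5 tags in Wt (interval 9.15 to 14.3) and 177 in Ebf1-KO (168 to 187), a 15.4-fold difference (12.3 to 19.5). The mark was concentrated at the gene's 5' end. From the intergenic region at 3411 bases before the start, through the promoters (0.21 and 11.3 tags, and 1.29 and 31.4 tags) to the first intron (0.36 and 13.1 tags), Ebf1-KO values lay between 35.1 and 52.3 tags per kb, and further inside the gene between 5.26 and 11.7 tags per kb. The 3 regions lying more than 50 kb before the gene stayed low in Ebf1-KO, with 0.91, 2.72 and 0.91 tags, the second of them called higher. All 11 regions were above a log2 ratio of 0 and 8 were called higher.

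The Gm266 domain was compact, with 3 regions in 2.65 kb (chr12:111484116-111486762), and rose from 3.22 to 121 tags (37.6-fold, 24.8 to 59.9). The Kirrel domain had 6 regions over 86 kb and summed values of 5.51 and 111 tags. Its first exon and promoter regions had 67.5 and 19.4 tags in Ebf1-KO, and the 4 intronic regions 23067 to 84520 bases into the gene had 3.43 to 9.25 tags. The potassium channel gene Kcnk10 had 4 regions around its start at 6.66 to 31.1 tags in Ebf1-KO and a distal region, 24095 bases before the start, that went from 0.93 tags in Wt to 0 in Ebf1-KO. Cplx2, the complexin 2 gene, differed in shape, since 11 of its 11 regions over 72.9 kb were called higher while no single region exceeded 15.1 tags.

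Crhbp (3.72 and 74.6 tags), Fam78b (8.03 and 70.9), Myh10 (1.79 and 64.4) and the microtubule crosslinking gene Mtcl1 (7.02 and 68.0) were the next domains with little mark in Wt. Elfn1 (59.5 and 121 tags) and Tbc1d9 (26.3 and 85.7) entered the list of 12 from a marked state, with folds of 2.03 (1.81 to 2.28) and 3.26 (2.76 to 3.86), but under the scaling on regions marked in both their log2 ratios were 0.07 and 0.73 and neither was called. Over the 195 higher domains the strongest Ebf1-KO region lay within 2 kb of a start in 118 (60.5%), beside 44.1% over all 852 domains. Median values per kb of region in the higher domains were 1.41 tags in Wt and 8.48 in Ebf1-KO, beside 1.21 and 1.09 over all domains.

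**Figure D2:**
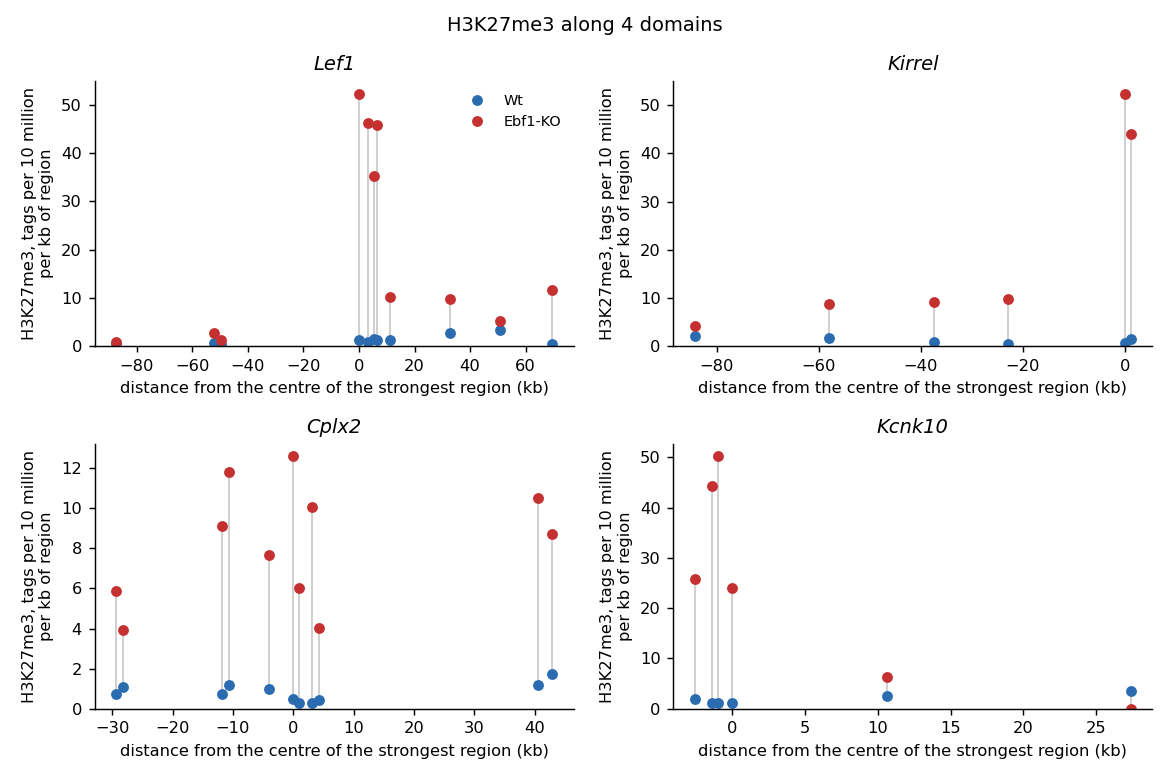
H3K27me3 in scaled tags per kb of region, against the distance along the chromosome from the centre of the region with the highest Ebf1-KO value, for the domains of Lef1, Kirrel, Cplx2 and Kcnk10, with 1 point per region and genotype. In Lef1, Kirrel and Kcnk10 the Ebf1-KO values peak in a few regions near the start and drop with distance, whereas in Cplx2 all 11 regions are raised to a moderate level.

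The lower domains had small sums. The 12 with the largest difference were Slc44a1 (22.9 tags in Wt and 10.55 in Ebf1-KO), Klf9 (13.25 and 4.66), Myo7a (8.17 and 1.69), Grn (8.22 and 2.01), Cyth1 (11.6 and 5.77), Abhd17c (7.96 and 2.40), Fosb (11.25 and 5.70), Ggnbp1 (9.74 and 4.28), Immp2l (7.46 and 2.01), Jun (6.23 and 0.84), Pld3 (6.52 and 1.36) and Rras2 (6.66 and 1.62). Cyth1 and Fosb did not reach the 2-fold threshold. In Klf9, Grn, Fosb, Ggnbp1, Abhd17c and Jun most of the Wt signal was in a single region. That region held 11.8, 7.23, 9.31, 8.31, 6.02 and 3.87 tags in Wt, in this order. The same was narrowly so for Rras2, with 3.37 of 6.66 tags. The Jun domain lies over 100 kb before the gene, and the promoter of Jun, an AP-1 subunit gene, had 0.14 and 0.13 tags. The lower domain of Immp2l does not stand for all regions of that gene, since others lie beyond the 50 kb gap limit. Of these, regions 135848 and 106455 bases before the start were called higher, with 1.43 and 4.21 tags, and 0.64 and 3.56 tags. Another, 185680 bases from the start, was also called higher, with 1.15 and 4.53 tags. The remaining Immp2l regions outside the domain were not called.

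Among regulators of the B lineage, H3K27me3 in Ebf1-KO covered several of the factors that act with or after Ebf1. Each gene was represented by its region with the highest mean of both genotypes, and by that rule 377 of 1660 genes were higher (22.7%) and 117 lower (7.05%), with a median log2 ratio of 0.02. Of 13 measured B-lineage factors, 5 were higher and none lower, with a median log2 ratio of 0.55. They were Lef1, Ikzf3 and Pax5 as given above, Foxo1, a forkhead factor that drives Rag and Il7r expression, and Bcl11a, a zinc finger repressor needed for lymphoid progenitors. Foxo1 had 1.58 tags in Wt and 36.7 in Ebf1-KO over its first exon (chr3:52267610-52270385), a 23.3-fold difference (12.8 to 47.2). Inside its long first intron a region 72356 bases from the start had 1.15 and 26.8 tags and another at 75390 bases had 1.72 and 12.3 tags. Its other 5 regions, all intergenic, had 0.78 to 3.17 tags in Ebf1-KO, and the highest of them was called higher from 0.93 tags in Wt.

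All 4 Pax5 regions were higher, with 0.21 to 0.50 tags in Wt and 4.85 to 22.6 in Ebf1-KO. They run from 1685 bases before the start to 1210 bases after it, and each was open in Wt only. Bcl11a had 4 of 6 regions higher, all around its starts, with 0.14 to 0.43 tags in Wt and 3.82 to 5.31 in Ebf1-KO, while its 2 distal regions had at most 0.39 tags in Ebf1-KO. H3K4me3 at the 4 regions was 64.1 to 102 tags in Wt and 88.5 to 161 in Ebf1-KO. The 5 regions of Tcf3, which encodes E2A, had at most 1.29 tags in Wt and 1.04 in Ebf1-KO. Pou2af1, the coactivator OCA-B, had 1 of 4 regions called higher, with 0.14 and 1.29 tags, and its promoter had 1.43 and 2.65 tags. Its strongest region, which was not called, had 1.93 and 3.30 tags.

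The Ebf1 gene itself stayed free of the mark. Its 5 regions had 0.57 to 1.86 tags in Wt and 0 to 1.75 in Ebf1-KO, and an intronic region 6634 bases from the nearest start was called lower (1.36 and 0.13 tags). H3K4me3 near the promoter was 59.9 tags in Wt and 126 in Ebf1-KO. Which part of the gene is deleted is not given in the sources used here, so these values give no check of the knockout label. No region of Id2 was among the 3638.

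Of 13 measured genes of the pre-B receptor 3 were called higher, beside 22.7% of all genes, with a median log2 ratio of 0.13. Blnk, the adaptor below the receptor, had 2.22 and 9.70 tags in an intronic region, Cd22, an inhibitory coreceptor, had 1.43 and 6.28, and Blk, a Src-family kinase, had 1.43 and 5.05 over its first exon. Under the scaling on regions marked in both none of the 3 was called, with log2 ratios of 0.90, 0.81 and 0.57. The promoters of Cd79a, Cd79b, Igll1 and Vpreb1 had less than 1 tag of H3K27me3 in both genotypes. That of Vpreb2, another surrogate light chain gene, had 1.58 and 1.16 tags and was not called. Its H3K4me3 was 74.1 and 3.26 tags and its RNA polymerase II 55.4 and 3.76. The Cd79a promoter (chr7:24896982-24897767) had 0.43 tags in Wt (interval 0.09 to 1.26) and 0.84 in Ebf1-KO, although H3K4me3 there was 94.0 tags in Wt and 3.01 in Ebf1-KO and RNA polymerase II was 63.2 and 3.76. At the Igll1 promoter, which drives the lambda5 part of the surrogate light chain, H3K27me3 was 0.43 and 0.52 tags while H3K4me3 was 63.7 and 4.49 and RNA polymerase II was 141 and 3.76. At the Vpreb1 promoter, for the other part of the surrogate light chain, it was 0.64 and 0.06 tags, with H3K4me3 at 51.0 and 2.04. At the Cd79b promoter it was 0.14 and 0.71 tags. All 5 regions of Cd79b had 0.07 to 2.29 tags in Wt and 0.19 to 2.59 in Ebf1-KO, and none was called. H3K4me3 at the Cd79b promoter was 93.2 and 5.15 tags and RNA polymerase II 15.2 and 2.39. Cd79a, Cd79b, Igll1 and Vpreb1 thus had less H3K4me3 and polymerase at their promoters in Ebf1-KO without a gain of H3K27me3 detectable at this depth.

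Of 8 measured surface receptors of early B cells 5 were higher, beside 22.7% of all genes, with a median log2 ratio of 1.46. Cd24a and Cd55 reached 10 tags, and over all 1660 genes 187 had any higher region of at least 10 tags. Cd24a, a surface glycoprotein used to stage B-cell precursors, had 1.36 tags in Wt and 31.25 in Ebf1-KO over its first exon, a 22.96-fold difference (12.1 to 49.6). Cd55, a complement regulator, had 1.43 and 23.2 tags close to its start. Cd38 had 1.65 and 7.96 tags, Il5ra, the interleukin 5 receptor alpha chain, 0.21 and 6.79, and Il2ra, the interleukin 2 receptor alpha chain, which is named after its values were seen, 0.79 and 2.98. Cd38 and Il2ra were not called under the scaling on regions marked in both, with log2 ratios of 0.95 and 0.51, which left 3 of the 8 higher beside 10.5% of all genes. The 5 B-lineage factors called higher, Lef1, Ikzf3, Pax5, Foxo1 and Bcl11a, all stayed called under that scaling.

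None of the 4 measured recombination genes was higher and 1 was lower, beside 22.7% and 7.05% of all genes. Rag1 was called lower at its promoter (1.79 and 0.26 tags), the strongest region of Rag2 had 1.5 and 0.39 tags, Dntt, the terminal transferase, 2.22 and 2.52, and Lig4 0.21 and 0. Of 4 measured cell cycle and survival genes 1 was higher, close to the 22.7% of all genes. It was the inhibitor gene Cdkn2c, with 1.00 and 7.70 tags at 1 of its promoters. The region at another of its starts had 0.43 and 0.39 tags and was not called. Ccnd3 (1.93 and 0.84), Bcl2l1 (0.29 and 0.58) and E2f2 (0.21 and 0.32) were not called. Of 3 measured progenitor factors 2 were higher, beside 22.7% of all genes. Id3, an inhibitor of E proteins, had 1.36 and 15.85 tags in a region 15904 bases before its start. Erg had 1.07 and 3.56 (log2 ratio 0.46 and not called under the scaling on regions marked in both), and Fli1, with 1.29 and 0.58, was not called. Ezh2, the only measured gene of the Polycomb list, had 0.72 and 0.13 tags at its start, and its H3K4me3 was 296 and 522 tags. At promoters open in both genotypes the median log2 ratio of H3K4me3 was 0.49.

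Few genes of other lineages are in these tables of genes enriched in Wt. Cd5 was the only measured gene of the T-lineage list (2.01 and 2.33 tags). Of 2 myeloid genes Lyz2 was called lower (2.44 and 0.45), beside 7.05% of all genes, and Csf2ra was not called (0.72 and 0.65). Fgf13 stood for the list of developmental genes often under Polycomb, with 0.72 and 0.97 tags. No gene of the natural killer, erythroid, stromal or housekeeping lists was measured.

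**Figure D3:**
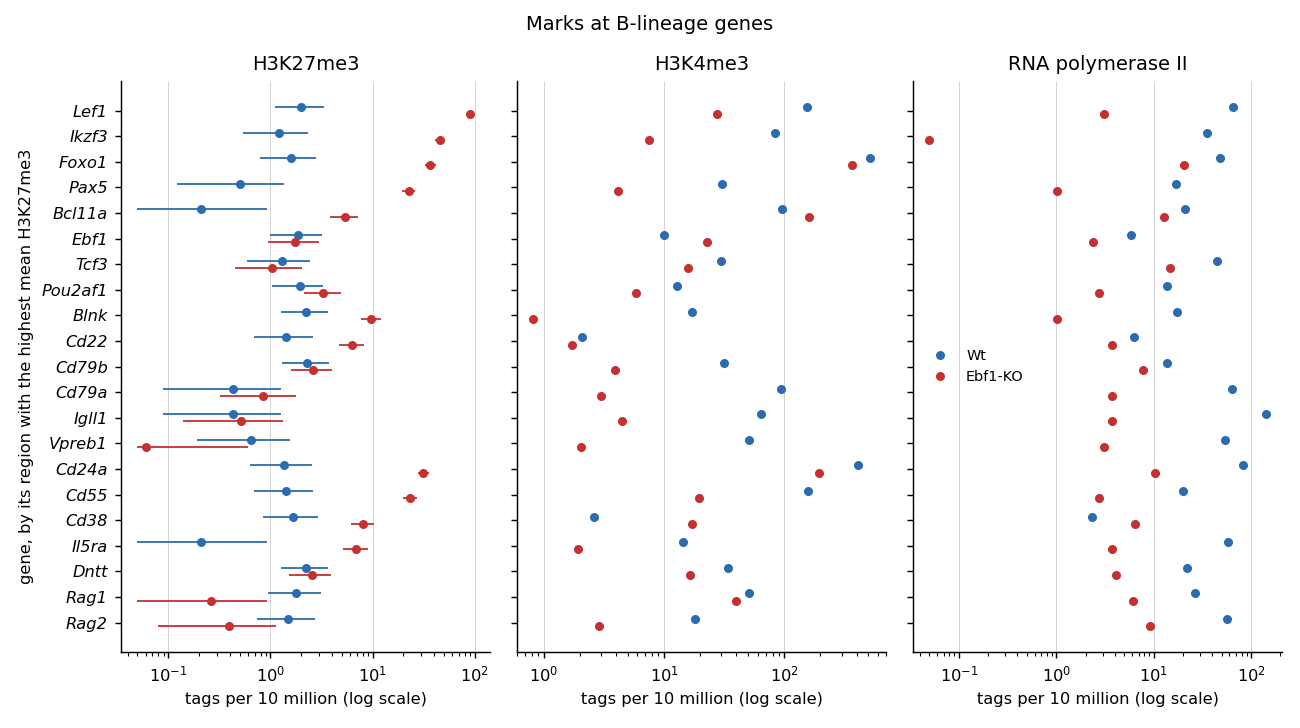
H3K27me3, H3K4me3 and RNA polymerase II in Wt (blue) and Ebf1-KO (red) at 21 B-lineage genes, each by its region with the highest mean H3K27me3, in scaled tags on log axes. Lines in the first panel are 95% Poisson intervals, and values or interval ends below 0.05 are drawn at 0.05. Lef1, Ikzf3, Foxo1, Pax5, Cd24a and Cd55 exceed 20 tags of H3K27me3 in Ebf1-KO, while Cd79a, Igll1 and Vpreb1 are below 1 tag in both genotypes. Rag1 and Rag2 are below 1 tag in Ebf1-KO only, with 1.79 and 1.5 tags in Wt.

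The gain was more frequent near gene starts and in regions that were closed in Ebf1-KO. Of the 69 promoters open in Wt only, 39.1% were higher (interval 28.5 to 50.9%), compared with 22.1% of promoters open in both (18.7 to 25.9%), 23.9% of other regions open in Wt only (21.01 to 27.1%) and 12.8% of other regions open in both (11.5 to 14.2%). The median log2 ratios of these classes were 0.58, 0.09, 0.14 and -0.12. By distance, 25.3% of regions within 1 kb of a start were higher, 15.8% at 1 to 10 kb, 10.7% at 10 to 50 kb and 14% beyond. By annotation the share was 28.3% in 5' UTRs, 24.1% in promoters, 22% in exons, 15.3% in introns, 14.5% in intergenic regions and 7.59% at transcript ends. Neighbouring regions are not independent, so these intervals are too narrow.

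Regions bound by Ebf1, taken as those that overlap by at least 1 bp the deposited tables of Ebf1-bound regions, whose names point to an Ebf1 ChIP of the 230-238 pre-B cell line, gained the mark more often. Among 1192 bound regions 269 were higher (22.6%, 20.3 to 25.0%), and among 2446 unbound regions 346 (14.1%, 12.8 to 15.6%). Bound regions were longer, at a median of 974 bp against 635 bp, and longer regions collect more tags. Among regions of 500 to 1000 bp the shares were 21.5% of 488 bound and 12.4% of 1015 unbound regions. In promoters open in Wt only the order was the other way, with 33.3% of 21 bound and 41.7% of 48 unbound regions. Of the 346 higher regions without Ebf1, 48% lay nearest to a gene that had an Ebf1-bound region elsewhere, and among unbound regions that were not higher this share was 47%. Overlap with Fli1 peaks and with Ikzf1 peaks went with smaller differences, at 18.4% with and 15.6% without a Fli1 peak and 20.2% with and 16.3% without an Ikzf1 peak.

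CpG content was read in the 250 bases before the start, for the 624 RefSeq starts whose window overlaps a region of the same gene. The median was 14 CpG in the 163 windows of higher regions and 13 in the 461 others, so the windows of all higher regions stood close to the rest. It was 18 in the 88 windows of regions higher with at least 10 tags, 14 over all 624 windows and 6 over all 32851 RefSeq windows. Where RNA polymerase II was at least 2-fold lower in Ebf1-KO, 113 windows lay in regions with higher H3K27me3 and had a median of 15 CpG, while the 113 without it had a median of 9. The share with higher H3K27me3 among windows with lower polymerase was 35.6% at 0 to 4 CpG (16 of 45, interval 23.2 to 50.2%), 46.5% at 5 to 14 CpG (40 of 86), 59.4% at 15 to 24 CpG (38 of 64) and 61.3% at 25 or more (19 of 31, 43.8 to 76.3%). Over all windows the share was 20.6%, 26.7%, 28.8% and 25.7% in the same order. The printed windows of Cd79a, Igll1 and Vpreb1, with 1 to 6 CpG, fall in the groups of low CpG, but so does that of Il5ra with 4 CpG, which was higher. The CpG bins were chosen after the values were seen.

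**Figure D4:**
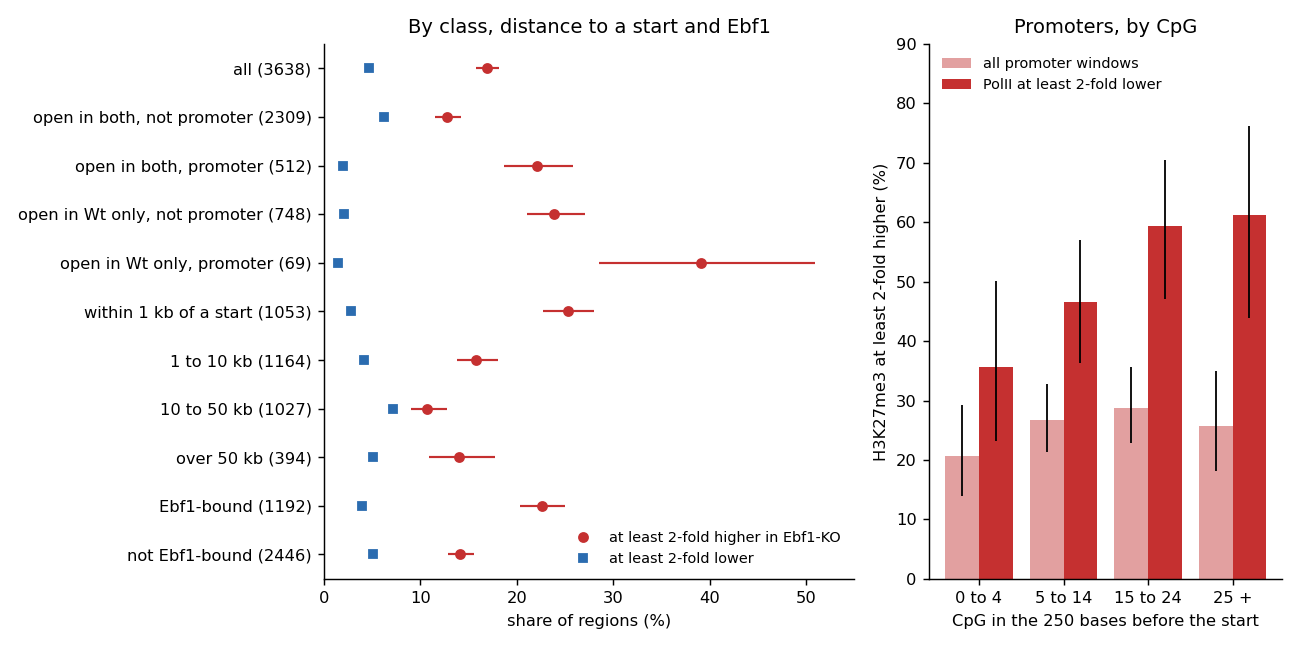
Left, share of regions at least 2-fold higher (red circles, with 95% Wilson intervals) or lower (blue squares) in Ebf1-KO by class, distance to a start and Ebf1 binding, with the number of regions in parentheses. Right, share of promoter windows in higher regions by CpG count, for all 624 windows (light bars) and for those with RNA polymerase II at least 2-fold lower (dark bars), with Wilson intervals. The share is highest in promoters open in Wt only (39.1%), and the dark bars go from 35.6% to 61.3%.

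Marks of activity were lower at regions with higher H3K27me3 more often than over all regions. At the 615 regions the median H3K27ac was 15.1 tags in Wt and 3.70 in Ebf1-KO, and 69.1% were at least 2-fold lower, beside 37.4% of all regions. RNA polymerase II went from 16.0 to 3.42 tags, with 70.6% of regions lower beside 39.7% of all. H3K4me3 went from 23.1 to 6.17 tags, with 49.4% lower beside 25.1%, and H3K4me2 from 32.1 to 7.67 tags, with 52.8% lower beside 30.2%. At the Ebf1-bound regions the chromatin remodeller BRG1 was lower at 61% of 269 higher regions, beside 32.1% of 1192 bound regions, and the acetyltransferase EP300 at 56.9% beside 36.7%. Accessibility in E2A-KO cells, which lack the partner factor of Ebf1, was at least 2-fold below Wt at 64.6% of the 615 regions, beside 47.5% of all regions. Away from promoters, among regions open in Wt only, H3K27ac was lower at 88.8% of the higher regions beside 70.7% of all, and the polymerase at 83.8% beside 65.8%. Within promoters open in both genotypes H3K27ac was lower at 52.2% of 113 higher regions beside 23.4% of all 512, and the polymerase at 57.5% beside 30.5%. At the 170 regions with lower H3K27me3 the H3K27ac median was 14.25 tags in Wt and 14.16 in Ebf1-KO, and 35.9% had at least 2-fold more H3K4me3, beside 15.4% of all regions. The H3K4me3 columns pool 2 libraries per genotype. Those of H3K4me2, H3K27ac, the polymerase, BRG1 and EP300 rest on a single library per genotype. No spread between libraries could be measured for any of these columns. The median log2 ratio of H3K4me3 was 0.49 at promoters open in both genotypes and 0.03 over all regions. The H3K4me3 values of named regions and the grouping below take no account of this shift.

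H3K4me3 separated the more strongly marked regions into 2 groups, a division chosen after the values were seen. In 122 of the 233 regions H3K4me3 was at least 2-fold lower in Ebf1-KO, with medians of 49.3 and 6.17 tags. In the other 111 it was not, with medians of 61.7 and 60.0 tags. Median H3K27me3 in Ebf1-KO was 19.9 tags in the first group and 17.7 in the second, both chosen with at least 10 tags. In Wt the medians were 1.83 and 3.29 tags, so the difference between genotypes was larger in the first group. RNA polymerase II fell 2-fold at 88.5% of the first group and 52.3% of the second, H3K27ac at 81.1% and 58.6%, and E2A-KO accessibility at 83.6% and 40.5%. Over all regions these shares were 39.7%, 37.4% and 47.5%, so the second group lay below the last of them. The first group held more regions open in Wt only (33.6% against 12.6%), and the second more within 1 kb of a start (68.5% against 51.6%). Of all 3638 regions, 748 away from promoters and 69 promoters were open in Wt only, and 1053 lay within 1 kb of a start. The groups share 14 genes.

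The first group held the region of Cplx2 near its start, with H3K4me3 at 221 tags in Wt and 5.05 in Ebf1-KO. Ikzf3 (84.3 and 7.45), Kirrel (205 and 15.6), Gm266 (260 and 14.8), Crhbp (86.65 and 4.34), Pax5 (30.1 and 4.18) and Cd55 (157 and 19.5) belonged to it as well. A distal region of Cr2, the complement receptor 2 gene, had H3K27me3 at 2.22 and 18.25 tags and H3K4me3 at 32.6 and 0.20. Cd24a lay just past the threshold, with H3K4me3 at 410 and 195 tags. The second group held Foxo1, with H3K4me3 at 514 tags in Wt and 366 in Ebf1-KO beside its 36.7 tags of H3K27me3. The circadian factor gene Clock had H3K4me3 at 210 and 312 tags and H3K27me3 at 2.58 and 11.8, and Bcat1, a branched-chain aminotransferase gene, had 255 and 248 tags of H3K4me3 with 1.43 and 12.0 of H3K27me3. Cr2, Clock and Bcat1 were chosen as examples after their values were seen. Of the 280 regions with at least 10 tags of H3K27me3 in Ebf1-KO, 178 also had at least 10 tags of H3K4me3 (63.6%, beside 51.3% of all regions), 29 had 10 tags of H3K27ac (10.4% beside 40.4%) and 36 had 10 tags of RNA polymerase II (12.9% beside 37.2%). The marks come from separate libraries, so both marks on the same chromatin and a mixture of cells cannot be told apart.

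Most regions with less H3K4me3 or polymerase were not called higher in H3K27me3. Their share was still above the 16.9% of all 3638 regions called higher. Of the 913 regions with at least 2-fold less H3K4me3, 304 were higher in H3K27me3 (33.3%), and of the 1443 regions with less polymerase 434 were (30.1%).

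**Figure D5:**
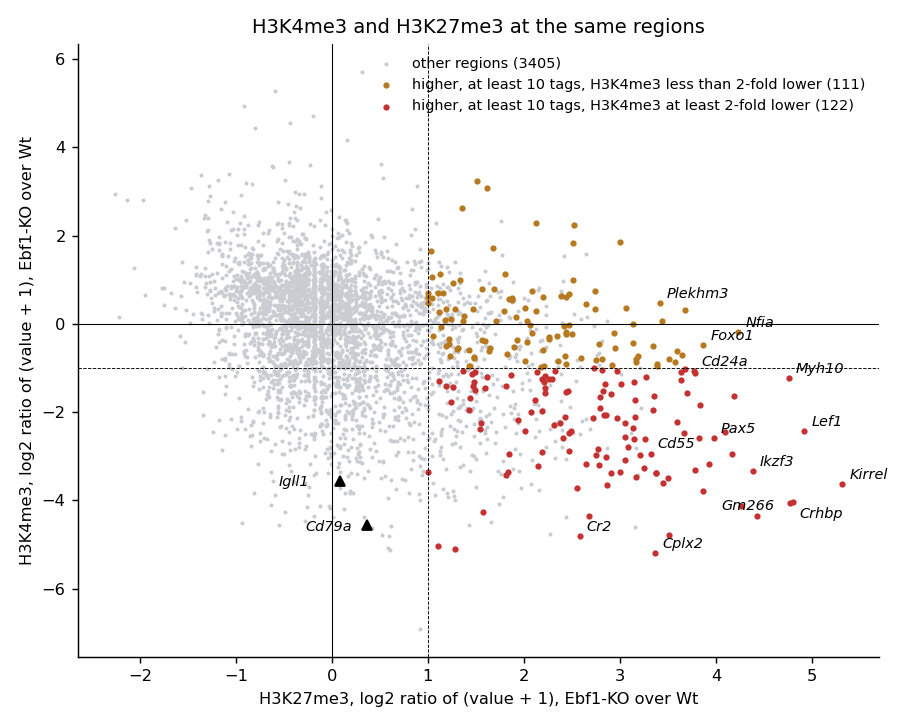
Log2 ratio of (value + 1), Ebf1-KO over Wt, for H3K27me3 (horizontal axis) and H3K4me3 (vertical axis), with 1 point per region and dashed lines at the 2-fold thresholds. Of the 233 regions with at least 10 tags and at least 2-fold more H3K27me3, 122 (red) have at least 2-fold less H3K4me3 and 111 (brown) do not. Black triangles mark the regions of Cd79a and Igll1 with the lowest H3K4me3 ratio, which have an H3K27me3 ratio near 0.

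The accessibility of these regions was also measured after a fusion of Ebf1 to the estrogen receptor ligand-binding domain was activated with 4OHT in Ebf1-KO cells, for the 1192 Ebf1-bound regions. At the 269 bound regions with higher H3K27me3, median ATAC values were 5.71 tags at 0 h, 7.49 at 6 h, 10.1 at 24 h and 9.80 at 72 h. At the other 923 bound regions they were 11.0, 14.1, 17.5 and 18.7. The median log2 ratio of 72 h to 0 h was 0.49 in the first set and 0.50 in the second, and 19.7% and 17.6% of regions reached 2-fold (18% of all 1192). Of the 20 bound regions open in Wt only with higher H3K27me3 and at least 10 tags, 1 reached 2-fold (5%), compared with 25.3% of 174 bound regions of the same state that were not higher. Among all 88 bound regions open in Wt only with higher H3K27me3 the share was 20.5%. H3K27me3 at these times was not analysed here.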

How the data were processed

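H3K27me3 ChIP-seq and, at the same regions, H3K4me3, H3K4me2, CUT&RUN H3K27ac, RNA polymerase II, BRG1, EP300 and ATAC-seq values were taken from deposited region tables. Trim Galore 0.6.4, Bowtie2 2.3.5, SAMtools 1.9 and HOMER 4.10 are among the tools in the submitters' processing notes. The deposited signal is a tag number for each region on mm10, normalised by the authors to 10000000 tags for a library or pool, per the file headers, without division by length. Multiplied back by the deposited totals, the H3K27me3 values fell on steps of 0.5 tag, and intervals rest on the tag numbers recovered in this way. The peak score of the deposited Fli1 and Ikzf1 lists was not used, only positions. Of the rows, 4 on chromosome Y and 122 repeats were left out, and 105 blank gene names were filled through RefSeq. Among the accessibility values, 2 columns matched no labelled sample and were not used.

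Log2 ratios of (value + 1) were computed in Python 3.11.15 with SciPy 1.17.1, and TMM factors with edgeR 4.0.16 as an alternative. Values carry exact Poisson intervals, tag ratios exact conditional intervals and shares Wilson intervals, all at 95%. Pooled columns allowed no test across samples. The procedure was tested on simulated data. Named were the 12 regions with the largest ratios and the 12 domains with the largest differences in each direction, the 6 regions most marked in both genotypes, up to 4 genes per list by mean H3K27me3 and 15 loci. Members and lists were chosen with earlier results of these data known. Other settings were tried for the pseudocount, scaling, minimum value, region length, domain rule and repeated rows. A gene that the rule names is not reported here.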

Additional observations from a re-analysis of the deposited data

How the results depend on the processing

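No paired analysis was possible because each genotype is 1 pooled column, and for the same reason no library could be left out. Of the 615 higher and 170 lower regions, a pseudocount of 5 left 273 and 2, regions of 500 to 1000 bp held 231 and 82, and the scaling on regions marked in both, chosen after seeing the data, gave 286 and 397. The lower count was 464 with a pseudocount of 0.5, 11 with at least 5 tags, 317 per kb of region and 110 with a scaling on regions under 2 tags in both, also chosen after seeing the data. Domains were 110 higher and 47 lower with at least 3 regions, 124 and 13 by the median over regions, and 94 and 229 under the scaling on regions marked in both. The median log2 ratio over all regions was -0.105 at 500 to 1000 bp. For regions open in Wt only away from promoters it was 0.037 with a pseudocount of 5, 0.232 per kb and 0.255 at 500 to 1000 bp, for promoters open in Wt only 0.184 with a pseudocount of 5, and for other regions open in both -0.189 with a pseudocount of 0.5, -0.037 with 5 and -0.184 at 500 to 1000 bp. Relative to the median of each class, the shares of higher regions with a 2-fold lower value were 43.7% for H3K4me3, 38.9% for H3K4me2, 37.2% for H3K27ac, 45.0% for the polymerase, 42.8% for BRG1, 41.3% for EP300 and 23.1% for E2A-KO accessibility, and 8.92% reached 2-fold at 72 h of 4OHT. Over all regions these shares were 22.6%, 21.7%, 15.2%, 21.4%, 21.1%, 22.6%, 13.7% and 7.47%. The sign of the median over all regions (-0.03) turned to 0.11 with the scaling on regions under 2 tags, and the scaling on regions marked in both turned the balance of calls to more lower than higher, for regions and for domains. Of 109 named regions and domains, TMM scaling and a pseudocount of 0.5 moved none, a pseudocount of 5 moved 57 and the scaling on regions marked in both 66. The cause was not tested. Depth limits the low values, since 706 regions (19.4%) had at most 3 tags in both genotypes.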
